A study of Mus musculus with 36 samples.

Results

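Interferon-stimulated genes were followed across 36 libraries of macrophages flow-sorted from mouse hearts. The set was a fixed list of 49 gene symbols, of which 48 stood among the 12795 genes of the count table. Gbp5 was not in the table and is not analysed here, and membership rested on the symbols, not on measured values. The 48 genes were sorted by role: sensors of foreign RNA and DNA, the oligoadenylate synthetase (OAS) family, transcription regulators, antiviral effectors, the ISG15 and ubiquitin system, membrane proteins, interferon-inducible GTPases and chemokines.

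Mice were fed tamoxifen for 7 days, underwent cardiac ischemia for 90 min and gave their macrophages 7 days after the injury. Mice of both genotypes are listed with Cx3cr1-er-Cre and the reporter Td-Tomato-LoxSTOP. The TFEB-TG mice also carried TFEB-LoxP-STOP, a cassette for TFEB, which is a transcription factor of lysosomal genes, and the TFEB-wt controls lacked it. Cells were split by the chemokine receptor CCR2, which recruited monocytes carry, into CCR2neg and CCR2pos fractions. Each fraction had a Cre-neg group and a group with Cre, the latter named CX3CR1-Cre for TFEB-wt mice and mac-TFEB for TFEB-TG mice. There were thus 4 TFEB-TG groups of 4 libraries and as many TFEB-wt groups of 5 libraries. The Cre is an inducible one driven by Cx3cr1, a gene of macrophages and monocytes, so it is not specific to the heart. How the Cre-neg cells differed (by genotype or by sort) could not be read from the labels. Ages and strain are not given either, and no group of uninjured or tamoxifen-free mice was analysed here. Whether a group's libraries stem from different mice is not stated, so p-values measure the spread between these libraries. Sample numbers recur over fraction and Cre status, so that TFEB-wt number 4, for instance, has 4 libraries.

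Type I interferons bind the IFNAR receptor, whose kinases JAK1 and TYK2 activate STAT2. With IRF9 it takes part in a complex that binds the interferon-stimulated response element (ISRE) of genes such as Isg15 and Ifit1. Interferon gamma acts through its own receptor on GAS elements and drives GTPases such as Gbp2 and the chemokines Cxcl9 and Cxcl10. In injured hearts, macrophages that take up DNA of dying cells are known to switch on such genes through IRF3, and a subset of them is marked by this program.

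Promoter sequences were available from RefSeq (GRCm38.p6), as windows from 250 bases before to 50 bases after the start of a gene, for 39 of the 48 genes. The ISRE core GAAANNGAAA, read on both strands, lay in 19 of these 39 promoters (48.7%) and in 4.02% of the 9766 promoters matched to the count table by symbol. The GAS-type motif TTCNNNGAA, which reads the same on both strands, lay in 11 of 39 (28.2%) and in 8.48% of the 9766. The members were chosen as known interferon targets, so these shares describe the list, and a match is not evidence of binding. The upstream stretches below carry ISRE matches of members described by library or named by family, written on the strand of the gene with each match in capitals and 20 bases on either side where the window before the start allows. Overlapping matches appear as 1 run of capitals. Irf7 and Cxcl9, also described by library, had no ISRE match in their windows, nor did Epsti1 and Plscr1.
Isg15 (chr4:156200855-156200916, minus strand): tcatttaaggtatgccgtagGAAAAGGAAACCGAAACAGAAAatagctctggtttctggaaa
Ifit1 (chr19:34640765-34640833, plus strand): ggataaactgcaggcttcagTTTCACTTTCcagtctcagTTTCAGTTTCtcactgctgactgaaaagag
Ifit3 (chr19:34583353-34583436, plus strand): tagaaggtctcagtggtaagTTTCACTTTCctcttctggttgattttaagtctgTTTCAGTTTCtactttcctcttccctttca
Oas1a (chr5:120907526-120907565, minus strand): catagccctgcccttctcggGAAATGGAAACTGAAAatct
Oas3 (chr5:120777705-120777754, minus strand): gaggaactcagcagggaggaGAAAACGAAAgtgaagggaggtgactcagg
Stat2 (chr10:128270256-128270305, plus strand): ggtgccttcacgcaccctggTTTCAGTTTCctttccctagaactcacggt
Rsad2 (chr12:26456543-26456592, minus strand): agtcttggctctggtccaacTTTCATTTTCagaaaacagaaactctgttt
Gbp2 (chr3:142620584-142620633, plus strand): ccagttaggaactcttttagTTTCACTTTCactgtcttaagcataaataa
Cxcl10 (chr5:92349073-92349122, minus strand): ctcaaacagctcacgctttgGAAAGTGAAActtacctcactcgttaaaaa
Isg15 held 3 overlapping matches beginning 78 bases before its start. Ifit1 and Ifit3 held 2 separate matches each. The matches of Stat2 and Cxcl10 lay farthest out of these, 222 and 213 bases before the start.

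Library totals ran from 13797484 to 32645783 counts (median 19676040), and 12359 to 12780 of the 12795 genes had a count. Summed macrophage markers (8 of 8 in the table) lay between 20310 and 35020 CPM (counts scaled to library size) in all libraries, so macrophage transcripts were plentiful in each. Purity was not tested. Tfeb averaged 188 CPM ± 127 (SD, n = 4) in mac-TFEB CCR2neg cells and 7.91 CPM ± 0.920 (n = 5) in CX3CR1-Cre CCR2neg cells. In CCR2pos cells the means were 158 CPM ± 111 (n = 4) and 6.54 CPM ± 2.94 (n = 5). In TFEB-TG Cre-neg cells Tfeb averaged 21.1 CPM ± 10.6 (CCR2neg) and 38.8 CPM ± 15.2 (CCR2pos). Against TFEB-wt Cre-neg cells this was a log2 difference of 1.65 ± 0.43 in CCR2neg (edgeR, adjusted p = 0.0697) and 2.68 ± 0.43 in CCR2pos (adjusted p = 0.00249), so TFEB-TG Cre-neg cells cannot be taken as free of added Tfeb. Ccr2 group means were 47.2 to 73.7 CPM in CCR2neg and 651 to 868 CPM in CCR2pos cells. Of the 5 monocyte markers (all in the table), Ccr2, Ly6c2 and Plac8 were higher in CCR2pos cells over the 4 backgrounds. In 2 CCR2neg libraries the monocyte marker sum stood apart: TFEB-TG Cre-neg number 1 at 3538 CPM and TFEB-wt Cre-neg number 2 at 1083 CPM, against at most 251 CPM in the mac-TFEB and 196 CPM in the CX3CR1-Cre libraries of that fraction. The first lay above any CCR2pos library (at most 1498 CPM). With Ccr2 means of at most 73.7 CPM in CCR2neg groups, most of its 3538 CPM came from other markers of the list. Whether monocytes were carried over into these libraries was not tested. The first also held 370 CPM of 4 cardiomyocyte markers. Calls of members that are lost without these 2 libraries are given so below.

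The mean count per library of the 48 genes ran from 227 (Ifi44) to 44880 (Ly6e), and the lowest count in a library was 50 (Ifi44). Per kilobase of exon, Ifitm3, a membrane protein that blocks virus entry, had the highest mean level at 1024 CPM per kb. Ly6e, a GPI-anchored surface protein, followed at 593 CPM per kb and Bst2, which tethers budding virus, at 200 CPM per kb. Isg15 (94.4), Irf7 (86.1), Rtp4 (73.7) and Irf1 (73.1) came next on this scale. At the lower end stood Cxcl9 (4.41 CPM per kb), the nucleotide kinase gene Cmpk2 (3.06) and Ifi44 (1.88). Reads were not strand-specific, so reads from a gene and its antisense partner cannot be told apart. In the annotation 19 of the 48 genes share exon bases with another gene, among them Irf7 with Phrf1 (45 bases), Cxcl10 with Art3 (133 bases), Adar with Chrnb2 (1365 bases) and Parp9 with Dtx3l (458 bases). Ifit3 and Oas1a have near-identical neighbours (Ifit3b, Oas1g), between which reads could be split uncertainly.

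CCR2pos macrophages held more of these transcripts than CCR2neg macrophages in each of the 4 backgrounds (TFEB-wt or TFEB-TG, with Cre or Cre-neg). The mean of log2(CPM + 1) over the 48 genes was higher in the CCR2pos library of 18 of 18 pairs with the same sample number and Cre status, by 0.05 to 0.91 (median 0.30). These 18 pairs come from 9 sample numbers, each giving a pair with Cre and a Cre-neg pair. Libraries of a number may share a mouse, so pair counts here and below may not rest on 18 separate replicates. Averaged over the 4 backgrounds, 29 of the 48 genes were higher and 1 was lower in CCR2pos cells, where 7.45% and 6.41% of all genes were (edgeR's quasi-likelihood test, Benjamini-Hochberg adjusted p under 0.05). The median log2 difference was 0.31 for the 48 genes, and 44 of them were above 0 (44.7% of all genes). Of the 48, 11 were higher in 18 of 18 pairs, against 1.66% of all genes. A fit that adds the sample number as a block gave 36 higher and 1 lower (11.3% and 9.85% of all genes). These counts average contrasts chosen after the single contrasts had been seen. Since RNA was measured in bulk, more interferon-active cells and more transcript per cell cannot be told apart. CCR2 itself defined the sort. Ccr2 is also 1 of the 5 monocyte markers, so a rise of their sum with this contrast was set in part by the sort. The sum ranged from 430 to 1498 CPM in CCR2pos libraries. In CCR2neg libraries it ranged from 52.3 to 251 CPM apart from the Cre-neg ones, which reached 3538 CPM. Ly6c2, which marks classical monocytes, differed by 2.75 ± 0.36 on the log2 scale. Plasmacytoid dendritic cell markers (4 of 5 in the table, Klk1 absent) summed to 208 to 330 CPM in CCR2neg and 225 to 356 CPM in CCR2pos libraries, and none of the 4 was called. Of the 5 conventional dendritic cell markers 3 were higher (Cd209a by 1.53, Flt3 by 0.99 and Xcr1 by 0.63). Of 4 neutrophil markers in the table (Retnlg absent) 1 was higher, Csf3r by 0.32, and of 4 B cell markers 1, Ighm by 0.31. Neutrophil marker sums ranged from 64.9 to 141 CPM in CCR2neg and from 100 to 144 CPM in CCR2pos libraries, and did not overlap between the fractions in CX3CR1-Cre cells (64.9 to 91.1 against 100 to 116 CPM). B cell marker sums ranged from 386 to 879 CPM in CCR2neg and from 567 to 1008 CPM in CCR2pos libraries. The part of these cells in the interferon difference was not tested.

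**Figure D1:**
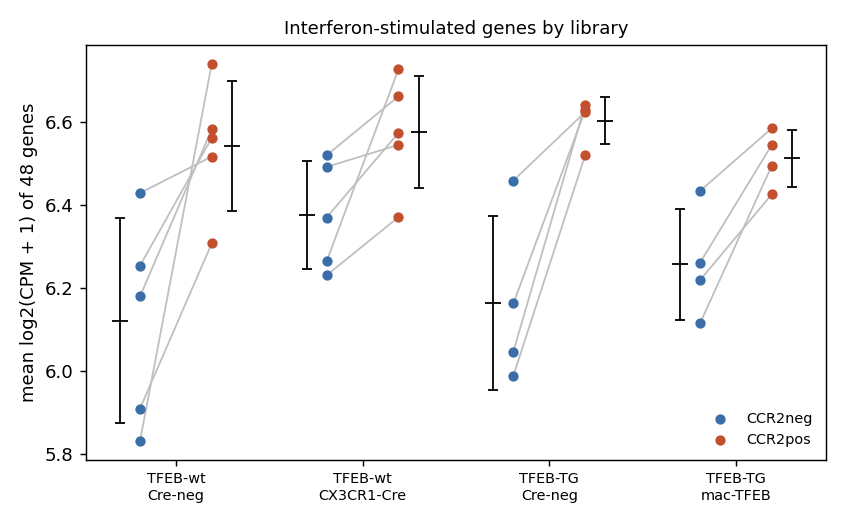
Mean log2(CPM + 1) of the 48 interferon-stimulated genes in each of the 36 libraries, by fraction (blue CCR2neg, red CCR2pos) within each genotype and Cre status; grey lines join libraries with the same sample number, and black bars are mean ± SD (n = 4 or 5). Every grey line goes up from CCR2neg to CCR2pos, by 0.05 to 0.91.

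Among the sensors, 5 of 6 genes were higher in CCR2pos cells over the 4 backgrounds. Ifih1, the gene of the double-stranded RNA sensor MDA5, differed by 0.45 ± 0.06 (SE, log2) and Zbp1, a sensor of Z-form nucleic acids, by 0.51 ± 0.08 (edgeR, adjusted p = 2.69e-06 and 3.65e-05). Dhx58 (0.40), Ddx58, which encodes RIG-I (0.25), and the translation-blocking kinase gene Eif2ak2 (0.22) were called as well. The editing enzyme gene Adar was not (0.14 ± 0.08, adjusted p = 0.23). Zbp1 and Dhx58 were higher in 18 of 18 pairs.

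The OAS family is named for enzymes that activate RNase L against viral RNA, which not every member does. Of its 5 genes here 4 were higher: Oas3 by 0.72 ± 0.13, Oasl1 by 0.55 ± 0.14, Oas1a by 0.30 ± 0.06 and Oasl2 by 0.29 ± 0.09. Oas2 had a difference of -0.14 ± 0.09 (adjusted p = 0.347, edgeR). Oas3 means ran from 23.4 to 28.03 CPM in the CCR2neg groups and from 35.0 to 47.8 CPM in the CCR2pos groups.

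The transcription regulators were divided. Irf7, the factor that amplifies type I interferon production, gave in TFEB-wt Cre-neg cells 326, 244, 171, 217 and 185 CPM in CCR2neg and 441, 606, 438, 368 and 294 CPM in CCR2pos libraries (numbers 1 to 5). In TFEB-TG Cre-neg cells it gave 217, 211, 181 and 232 CPM in CCR2neg and 442, 464, 364 and 483 CPM in CCR2pos libraries (numbers 1 to 4). The first pair of groups overlapped through number 1 of CCR2neg and number 5 of CCR2pos, and the second pair did not overlap. With Cre, CX3CR1-Cre cells had 327, 284, 260, 290 and 239 CPM (CCR2neg) and 437, 459, 389, 364 and 326 CPM (CCR2pos). Cells of mac-TFEB mice had 268, 265, 188 and 262 CPM (CCR2neg) and 372, 351, 322 and 423 CPM (CCR2pos). Irf7 was thus higher in CCR2pos cells in 18 of 18 pairs. Its difference over the 4 backgrounds was 0.76 ± 0.08 (edgeR, adjusted p = 4.86e-08). Sp100, a nuclear body protein, differed by 0.37 ± 0.07. Stat2 and Irf9, whose products bind the ISRE together, were not called (0.21 ± 0.11, adjusted p = 0.238, and 0.06 ± 0.05, adjusted p = 0.439), although Stat2 was with the block (adjusted p = 0.00449). Irf1, the factor most tied to interferon gamma, was the 1 gene lower in CCR2pos cells (-0.19 ± 0.06, adjusted p = 0.0368). That call was lost without the 2 libraries high in monocyte markers (adjusted p = 0.0538) and on leaving out any of 16 of the 36 libraries, with adjusted p up to 0.0685. In TFEB-TG these were number 4 (CCR2neg Cre-neg), 2 and 4 (CCR2neg mac-TFEB), 2 (CCR2pos Cre-neg), and 2 and 4 (CCR2pos mac-TFEB). In TFEB-wt they were 2 and 4 (CCR2neg Cre-neg), 1 to 4 (CCR2neg CX3CR1-Cre), 3 and 5 (CCR2pos Cre-neg), and 4 and 5 (CCR2pos CX3CR1-Cre). Irf1 was higher in CCR2pos in 4 of 18 pairs.

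Of the antiviral effectors 7 of 10 were higher over the 4 backgrounds. Ifi44, a protein of restrained cell growth, had the widest difference of the 48 genes, 1.27 ± 0.19 (edgeR, adjusted p = 9.18e-06), at low counts. In TFEB-wt Cre-neg cells its libraries read 7.88, 3.14, 1.85, 9.31 and 6.04 CPM (CCR2neg) and 16.2, 28.5, 20.8, 17.3 and 11.1 CPM (CCR2pos), without overlap. Rsad2, the gene of viperin, was higher in 18 of 18 pairs (0.50 ± 0.11), and the exonuclease gene Isg20 (0.52 ± 0.08), Ifit2 (0.57 ± 0.15), Rtp4 (0.33 ± 0.07) and Mx1 (0.32 ± 0.08) were called too.

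Ifit3, which binds viral RNA with its partners Ifit1 and Ifit2, had a wide spread in CCR2neg cells. Its TFEB-wt Cre-neg libraries read 90.2, 45.5, 28.9, 42.0 and 29.0 CPM (CCR2neg) and 78.6, 52.3, 96.0, 58.3 and 46.0 CPM (CCR2pos), so that number 1 of the CCR2neg group exceeded 4 of the 5 CCR2pos libraries. In CX3CR1-Cre cells it read 75.6, 62.0, 58.8, 51.8 and 43.5 CPM (CCR2neg) and 87.9, 63.8, 95.4, 59.9 and 52.6 CPM (CCR2pos), which overlapped. TFEB-TG Cre-neg cells gave 35.2, 50.7, 47.8 and 74.6 CPM (CCR2neg) and 88.6, 79.4, 68.8 and 73.5 CPM (CCR2pos), and mac-TFEB cells 53.4, 51.8, 48.7 and 72.9 CPM (CCR2neg) and 76.2, 59.8, 66.9 and 75.03 CPM (CCR2pos). Both also overlapped. Over the 4 backgrounds the difference was 0.41 ± 0.13 (edgeR, adjusted p = 0.0264), with 16 of 18 pairs higher. Ifit1 (0.31 ± 0.15, adjusted p = 0.186), Cmpk2 (0.15 ± 0.15) and Samd9l (-0.01 ± 0.18) were not called.

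Isg15, a ubiquitin-like protein that is joined to newly made proteins, was higher in CCR2pos cells in 18 of 18 pairs. TFEB-wt Cre-neg libraries read 55.1, 48.6, 34.8, 59.1 and 42.6 CPM (CCR2neg) and 93.2, 98.0, 115, 81.9 and 68.5 CPM (CCR2pos). TFEB-TG Cre-neg libraries read 39.0, 42.7, 49.9 and 64.9 CPM against 84.9, 92.6, 89.9 and 111 CPM. Neither pair of groups overlapped. With Cre, CX3CR1-Cre libraries read 67.0, 60.2, 61.5, 80.4 and 63.6 CPM (CCR2neg) and 95.9, 84.7, 78.1, 108 and 71.5 CPM (CCR2pos). The mac-TFEB libraries read 51.6, 47.5, 51.2 and 69.3 CPM (CCR2neg) and 77.9, 62.9, 78.9 and 103 CPM (CCR2pos). Both pairs of groups with Cre overlapped. The difference was 0.93 ± 0.16 in TFEB-wt Cre-neg (adjusted p = 0.000601, edgeR), 0.94 ± 0.18 in TFEB-TG Cre-neg (0.00142), 0.40 ± 0.16 in CX3CR1-Cre (0.30) and 0.55 ± 0.18 in mac-TFEB (0.172). Of the other genes of this role Trim30a (0.33 ± 0.06) and the deconjugating protease gene Usp18 (0.33 ± 0.10) were called over the 4 backgrounds, making 3 of 9. Herc6, the ligase gene of ISG15, was not (0.25 ± 0.09, adjusted p = 0.0564). With the block 8 of 9 were called, all but Parp9 (0.01).

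All 5 genes grouped here as membrane proteins were higher in CCR2pos cells over the 4 backgrounds, and 3 of them in 18 of 18 pairs. The grouping is loose for Epsti1. Ly6e read 2347, 1908, 1487, 2154 and 1525 CPM in TFEB-wt Cre-neg CCR2neg and 2933, 3515, 2724, 2901 and 2436 CPM in CCR2pos libraries. In mac-TFEB cells it read 1421, 1439, 1171 and 1690 CPM (CCR2neg) and 1951, 2344, 2367 and 2713 CPM (CCR2pos). Groups overlapped in neither. Ly6e was called in each of the 4 backgrounds, by 0.62 ± 0.12 (TFEB-wt Cre-neg), 0.61 ± 0.12 (CX3CR1-Cre), 0.49 ± 0.13 (TFEB-TG Cre-neg) and 0.71 ± 0.13 (mac-TFEB), with edgeR adjusted p of 0.00233, 0.00691, 0.0317 and 0.00473. The TFEB-TG Cre-neg call was lost on leaving out CCR2neg number 1 or 3 or CCR2pos number 2, 3 or 4, with adjusted p up to 0.113. Without the 2 libraries high in monocyte markers it was lost too (0.42, adjusted p = 0.0893). Plscr1, a lipid scramblase gene, differed by 0.75 ± 0.08 over the 4 backgrounds and Epsti1, named for its induction in epithelial-stromal interaction, by 0.50 ± 0.05 (adjusted p = 4.97e-08 and 7.26e-09, edgeR). Epsti1 had the smallest p of the 48 genes. Bst2 (0.40 ± 0.07) and Ifitm3 (0.33 ± 0.06) completed the group.

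The interferon-inducible GTPases attack the vacuoles of intracellular microbes. Of 6 genes, Ifi47 (0.42 ± 0.10) and Gbp7 (0.27 ± 0.07) were called. Gbp2 was not (0.12 ± 0.11, adjusted p = 0.523, edgeR). It read 100, 93.7, 47.3, 137 and 70.1 CPM in TFEB-wt Cre-neg CCR2neg and 83.4, 107, 77.6, 131 and 89.6 CPM in CCR2pos libraries. In CX3CR1-Cre cells it read 111, 101, 86.1, 142 and 112 CPM (CCR2neg) and 102, 91.3, 94.2, 121 and 107 CPM (CCR2pos). Gbp2 thus overlapped between the fractions in both, and number 4 was highest in each of the 4 groups. TFEB-TG Cre-neg cells gave 64.4, 71.0, 79.9 and 114 CPM (CCR2neg) and 110, 79.5, 113 and 119 CPM (CCR2pos). The mac-TFEB cells gave 98.8, 74.1, 89.3 and 113 CPM (CCR2neg) and 109, 65.3, 110 and 120 CPM (CCR2pos). These groups overlapped as well. Gbp3 (0.06), Igtp (0.10) and Irgm1 (0.20) were not called either.

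The chemokine genes parted. Cxcl10, which draws CXCR3-bearing T cells, was higher in CCR2pos cells in 18 of 18 pairs (0.49 ± 0.16, adjusted p = 0.0395 with edgeR, and 2.38e-08 with the block). Cxcl9, a ligand of the same receptor, was higher in 9 of 18 pairs (-0.03 ± 0.21, adjusted p = 0.961). Their values by library follow with the sample numbers, which carried most of their spread.

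**Figure D2:**
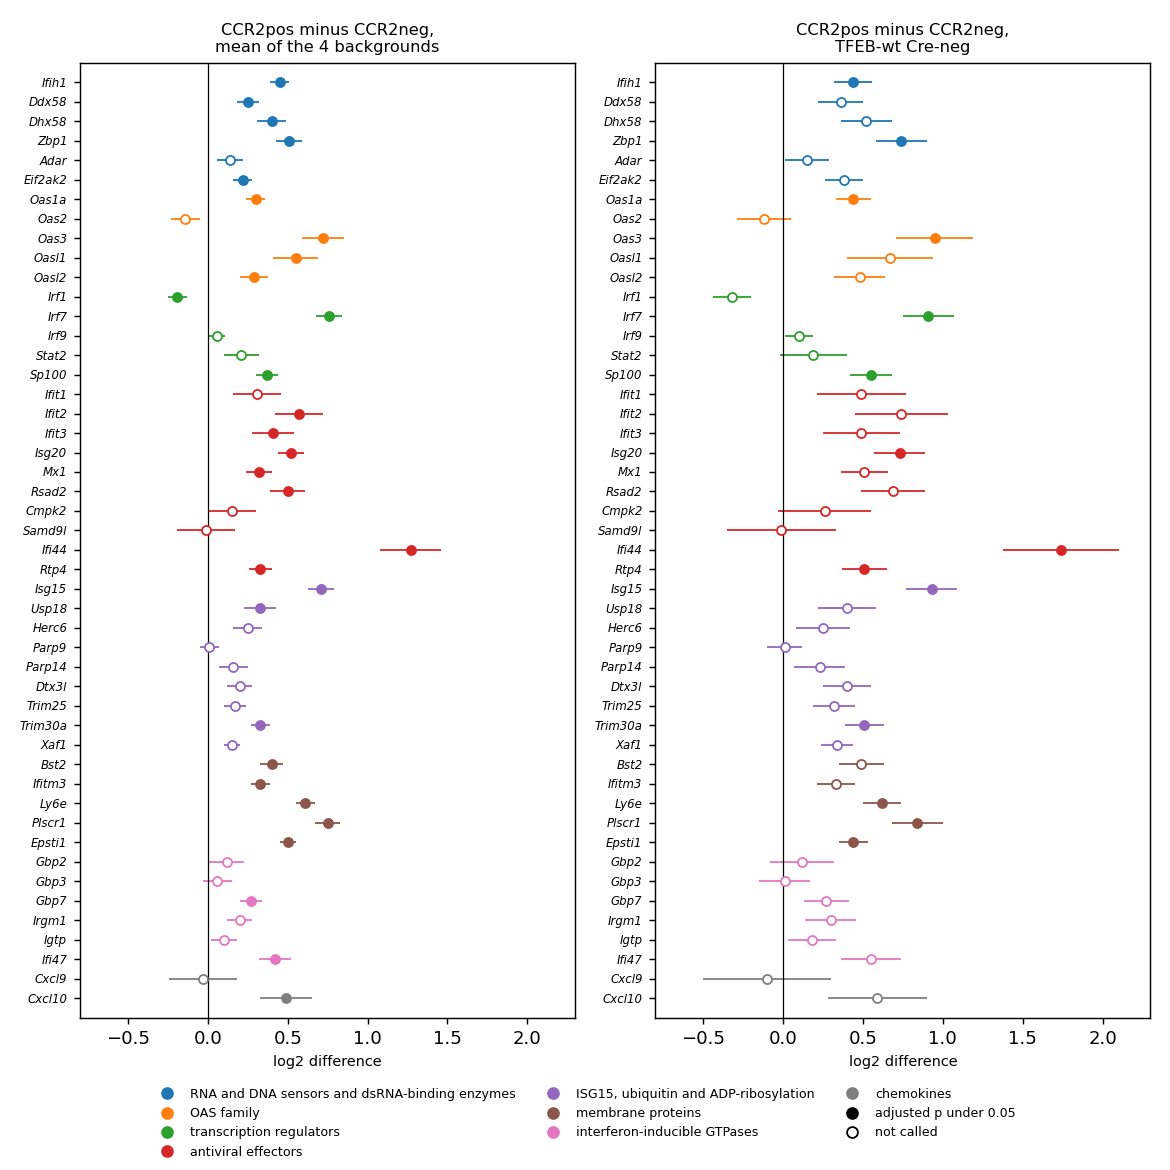
Log2 difference (CCR2pos minus CCR2neg) ± SE of each of the 48 genes, as the mean of the 4 backgrounds (left) and in TFEB-wt Cre-neg cells (right); filled points passed an adjusted p of 0.05 (edgeR) and colours give the role. On the left 29 points are filled above 0 and 1, Irf1, below; on the right 14 are filled above 0 and none below.

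Taken by background, the count of genes higher in CCR2pos cells was 14 in TFEB-wt Cre-neg (1.53% of all genes), 8 in TFEB-TG Cre-neg (2.47%), 2 in CX3CR1-Cre (0.594%) and 2 in mac-TFEB (0.391%). No member was called lower in any of the 4, where 0.821%, 0.789%, 0.203% and 0.148% of all genes were. At an unadjusted p under 0.05, 1, 0, 0 and 0 members were lower, against 5.58%, 7.28%, 5.42% and 3.96% of all genes. DESeq2 and limma-voom called no member lower either. With the sample number as a block the higher counts were 26 (3.67% of all genes), 23 (6.26%), 9 (2.7%) and 9 (2.36%), and Irf1 was called lower in TFEB-wt Cre-neg (2.65% of all genes). Median differences were 0.44, 0.39, 0.20 and 0.24. The count in TFEB-wt Cre-neg was 8 without CCR2neg number 3 and 9 without CCR2pos number 2 or 3, and that in TFEB-TG Cre-neg was 5 without CCR2neg number 3, 5 without CCR2pos number 2 and 4 without CCR2pos number 4. In mac-TFEB the count was 1 without CCR2neg number 2, 3 or 4 or CCR2pos number 2 or 4. Single calls in TFEB-TG Cre-neg were lost likewise: Plscr1 without CCR2neg number 2 or CCR2pos number 4, Oas3 without CCR2neg number 2 or 3 or CCR2pos number 1, 2 or 4, and Bst2 without any of these or CCR2neg number 4. The Epsti1 call in mac-TFEB was lost without CCR2neg number 2, 3 or 4 or CCR2pos number 1, 2 or 4. Besides the genes above, Zbp1 (0.74 ± 0.16) and Isg20 (0.73 ± 0.16) were among the leading calls in TFEB-wt Cre-neg. Ifih1 (0.74 ± 0.13), Oas3 (0.99 ± 0.27) and Bst2 (0.59 ± 0.16) were so in TFEB-TG Cre-neg. Plscr1 was called in CX3CR1-Cre (0.86 ± 0.16) and Epsti1 in mac-TFEB (0.47 ± 0.11). The larger counts in Cre-neg cells do not by themselves show a larger difference there. Tested directly, no gene was called for a difference between fractions that varied by Cre status (edgeR, 0 of 48 members and 0% of all genes in either direction and genotype, also with the block). The difference was nonetheless larger in Cre-neg cells for 43 of 48 members in TFEB-wt and 44 in TFEB-TG (50.1% and 50.6% of all genes). At an unadjusted p under 0.05, 6 members in TFEB-wt and 2 in TFEB-TG had a wider gap in Cre-neg cells (1.87% and 1.34% of all genes) and none a narrower one (2.23% and 0.922%), and the median gap was wider by 0.20 and 0.15. Isg15 in TFEB-wt (0.53 ± 0.22, adjusted p = 0.992) and Ifih1 in TFEB-TG (0.41 ± 0.18, adjusted p = 1) had the smallest p. Ly6c2 moved with Cre status too: its CCR2pos means were 14.2 CPM ± 7.98 (TFEB-wt) and 16.1 CPM ± 7.33 (TFEB-TG) in Cre-neg cells and 2.09 CPM ± 1.02 and 2.19 CPM ± 1.99 with Cre. The part of Ly6c2-bearing cells in the counts was not tested.

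Some of the genes that carry the interferon signal were higher in CCR2pos cells over the 4 backgrounds, where 7.45% of all genes were higher. Of 6 ligand and receptor genes tested 4 were higher, namely both chains of each receptor: Ifnar2 by 0.43 ± 0.07, Ifnar1 by 0.26 ± 0.06, Ifngr2 by 0.24 ± 0.06 and Ifngr1 by 0.23 ± 0.05. In signal transduction 6 of 16 were higher, among them Stat3 (0.27), Tyk2 (0.27), Ptpn2 (0.22) and Jak1 (0.21). In nucleic acid sensing 8 of 17 were higher, including Myd88 (0.31), Tmem173, the gene of STING (0.33), the nucleotide hydrolase gene Samhd1 (0.34) and Unc93b1, which delivers Toll-like receptors to endosomes (0.42). Of 17 genes of MHC class I and the immunoproteasome 7 were higher, led by H2-K1 (0.21), H2-T23 (0.28), B2m (0.16) and Tap1 (0.35). No gene of these 4 lists was lower. A further 72 interferon-stimulated genes outside the set split into 35 higher and 1 lower, Ifi27 (-0.33). Ms4a4c led them at 1.66 ± 0.12, followed by Ciita, the master regulator of MHC class II (0.92), Slfn1 (0.85) and Ifi213 (0.58). Ifnb1, the gene of interferon beta itself, was near the floor: group means ran from 0.149 to 1.32 CPM.

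Few of the 48 genes were called for TFEB induction. In CCR2neg cells mac-TFEB against CX3CR1-Cre gave 1 member lower (0.453% of all genes) and none higher (0.922%), with a median difference of -0.13 against 0.01 over all genes, and 15 of 48 differences were above 0 (51.6% of all genes). Beside this, 1 of the 8 macrophage markers, C1qa, was lower in the same contrast (-0.76, adjusted p = 0.0424), and its part was not tested. The 1 gene was Epsti1, which read 86.8, 77.6, 70.2 and 78.1 CPM in mac-TFEB and 104, 93.5, 99.5, 107 and 105 CPM in CX3CR1-Cre libraries. The groups did not overlap (-0.38 ± 0.10, adjusted p = 0.045, edgeR). This call was lost on leaving out mac-TFEB number 2, 3 or 4 or CX3CR1-Cre number 1, 3, 4 or 5, with adjusted p up to 0.255. The genotypes were also compared in Cre-neg cells, where Tfeb averaged 21.1 CPM (TFEB-TG) and 6.65 CPM (TFEB-wt) in the CCR2neg fraction. TFEB-TG Cre-neg against TFEB-wt Cre-neg CCR2neg cells had 1 member lower, Epsti1 again, where 0.367% of all genes were lower and 0.0391% higher. No member was higher there at an unadjusted p under 0.05 (4.7% of all genes), although 34 of 48 differences were above 0 (53.7% of all genes), with a median of 0.07. There it read 64.6, 56.9, 69.0 and 75.9 CPM against 104, 79.2, 96.9, 95.1 and 77.1 CPM, again without overlap (-0.44 ± 0.10, adjusted p = 0.0383). That call was lost without TFEB-TG number 2 or 3 or TFEB-wt number 1, 3 or 4, with adjusted p up to 0.0931. The 2 comparisons share no library but use the same sample numbers. Same-numbered libraries of the 2 Cre states in this fraction correlated in their deviations from group means. The correlation was 0.374 to 0.556 in TFEB-wt and 0.48 to 0.697 in TFEB-TG, so the 2 calls may not be independent. The difference between the 2 comparisons for Epsti1 was 0.06 ± 0.14 (edgeR, adjusted p = 0.999).

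Further genes grouped with Epsti1 lay lower in mac-TFEB CCR2neg cells without passing the adjusted threshold. They were Bst2 -0.42 ± 0.15 (adjusted p = 0.169), Ifitm3 -0.35 ± 0.13 (0.17) and Ly6e -0.33 ± 0.13 (0.212, all edgeR). Plscr1, the remaining gene of that group, did not lie lower. Its CCR2neg means were 25.64 CPM in mac-TFEB and 24.96 CPM in CX3CR1-Cre cells. At an unadjusted p under 0.05, 8 members were lower (16.7%, against 7.39% of all genes) and none was higher (7.25% of all genes). Other genes of the set had these differences, none past the adjusted threshold: Isg15 -0.28 ± 0.17, Irf7 -0.19 ± 0.17, Stat2 -0.33 ± 0.22, Gbp2 -0.23 ± 0.22, Cxcl10 -0.23 ± 0.33 and Ifit3 -0.04 ± 0.26. Cxcl9 was the widest at -0.90 ± 0.43 (adjusted p = 0.321). Limma-voom with quality weights called 5 members lower. Its share over all genes is not given here, so that count is not read as a result about the members.

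In CCR2pos cells no member was called in either direction for TFEB (edgeR, 0.0156% of all genes higher and 0.0234% lower). At an unadjusted p under 0.05, Trim25 lay above 0 (0.29 ± 0.14, adjusted p = 1) and Epsti1 below (-0.22 ± 0.10, adjusted p = 1), where 2.89% and 1.73% of all genes did. Gbp7 (-0.30 ± 0.15) and Igtp (-0.31 ± 0.16) came next. DESeq2 and limma-voom also called none. The median was -0.12, and 12 of 48 differences were above 0, against 49.2% of all genes. For TFEB-TG Cre-neg against TFEB-wt Cre-neg in CCR2pos cells no member was called (0.0156% of all genes in each direction). The smallest p there belonged to Ifitm3 (-0.29 ± 0.13), Rsad2 (0.44 ± 0.21), Oas2 (0.25 ± 0.18) and Gbp3 (0.19 ± 0.17), each with an adjusted p of 1, and Ifitm3 and Rsad2 had an unadjusted p under 0.05 (1.04% of all genes lower and 2.03% higher). The difference between genotypes with Cre beyond that in Cre-neg cells was called for no gene in either fraction (edgeR, 0% of all genes), with member medians of -0.16 and -0.13. It was below 0 for 42 of 48 members in CCR2neg and 41 in CCR2pos (49.4% and 49.6% of all genes). At an unadjusted p under 0.05, Rtp4 (-0.48 ± 0.21), Ly6e (-0.39 ± 0.18) and Zbp1 (-0.48 ± 0.23) lay below 0 in CCR2neg (1.7% of all genes) and none above (2.17%). In CCR2pos no member did either way (0.524% and 0.61%). Nor was any gene called for a TFEB difference that varied between the fractions (member median 0.07, no member at an unadjusted p under 0.05, against 1.84% of all genes higher and 2.1% lower). There 32 of 48 members were above 0 (49.7% of all genes). DESeq2 and limma-voom called no member in these tests of differences. An adjusted p above the threshold does not show that TFEB leaves these genes alone.

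Of the signalling genes around the set, Socs3, the feedback inhibitor of cytokine receptors, was lower in mac-TFEB CCR2neg cells (-0.83 ± 0.18, adjusted p = 0.00844, 1 of 16 tested). Of the 72 further interferon-stimulated genes Ciita was lower (-1 ± 0.22, adjusted p = 0.0121) and Cd274, the gene of PD-L1, higher (0.75 ± 0.20, adjusted p = 0.0442, all edgeR). Without 1 library these calls were not all stable: the Cd274 call was lost without mac-TFEB number 2, 3 or 4 or any 1 of the 5 CX3CR1-Cre libraries, the Ciita call without mac-TFEB number 3 or 4, and the Socs3 call without mac-TFEB number 3 or CX3CR1-Cre number 3. The CX3CR1-Cre group used here also differed from TFEB-wt Cre-neg CCR2neg cells in both Cd274 (-0.84, adjusted p = 0.00934) and Ciita (0.82, adjusted p = 0.0218, edgeR). These differences run opposite to those of mac-TFEB against the same group. The part of the CX3CR1-Cre group in the 2 calls was not tested. No gene of the ligand and receptor, sensing or MHC class I lists was called for TFEB in either fraction.

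**Figure D3:**
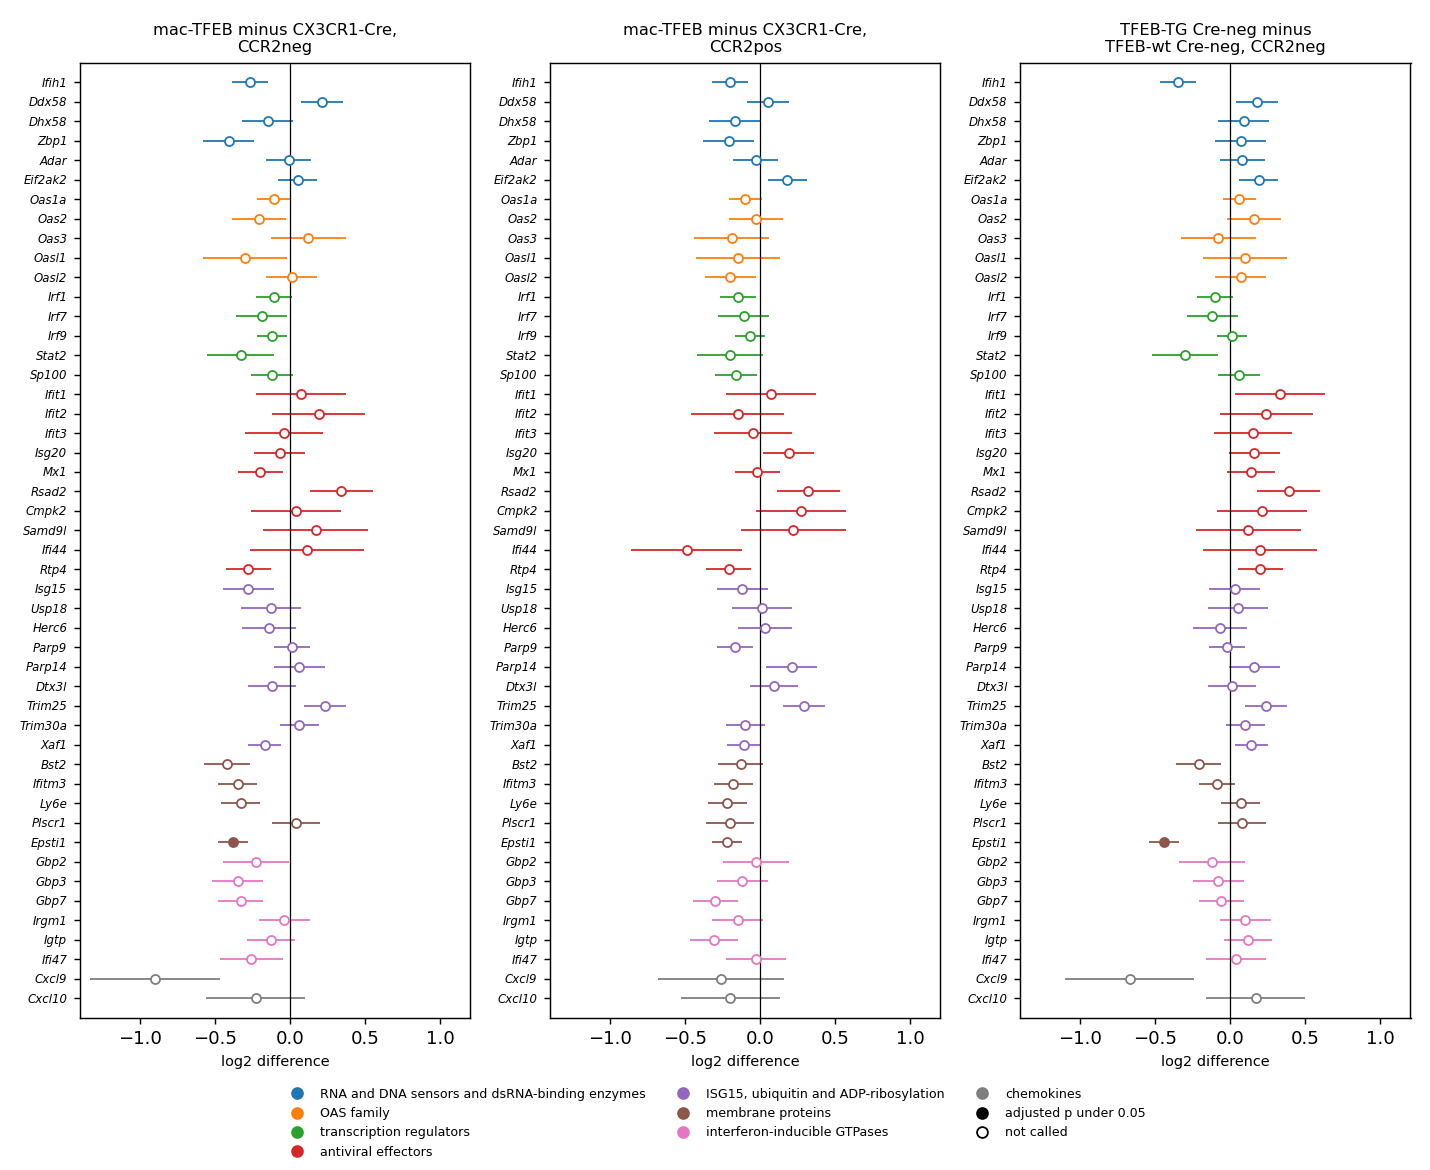
Log2 difference ± SE of each of the 48 genes for mac-TFEB against CX3CR1-Cre in CCR2neg (left) and CCR2pos cells (middle), and for TFEB-TG Cre-neg against TFEB-wt Cre-neg in CCR2neg cells (right); filled points passed an adjusted p of 0.05 (edgeR). Epsti1 is the filled point on the left (-0.38) and on the right (-0.44), and no point is filled in the middle.

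Within the TFEB-wt genotype, most of the set lay somewhat higher in CCR2neg CX3CR1-Cre than in CCR2neg Cre-neg cells. The set means in log2(CPM + 1) were 6.37 ± 0.13 and 6.12 ± 0.25 (SD, n = 5 each) and overlapped (6.23 to 6.52 and 5.83 to 6.43). Ly6e, the member with the most counts, averaged 1792 CPM with Cre and 1884 CPM in Cre-neg. Differences were above 0 for 45 of 48 genes (51% of all genes), with a median of 0.25. The 1 member called was Mx1, a GTPase that traps viral nucleocapsids, and none was lower (0.969% of all genes higher and 1.63% lower). At an unadjusted p under 0.05 no member was lower either (7.02% of all genes). Its libraries read 27.3, 27.6, 23.1, 25.3 and 25.4 CPM with Cre and 24.4, 16.3, 14.5, 20.6 and 13.3 CPM in Cre-neg, overlapping through number 1 of Cre-neg. The difference was 0.53 ± 0.15 (adjusted p = 0.0415, edgeR). It was lost on leaving out Cre-neg number 2, 3 or 5 or any 1 of the 5 CX3CR1-Cre libraries, with adjusted p up to 0.158. Without the 2 libraries high in monocyte markers, of which Cre-neg number 2 is 1, it was 0.48 (adjusted p = 0.107). With the block 9 members were higher (3.41% of all genes): Mx1, Isg15 (0.48), Bst2, Rtp4, Zbp1, Xaf1, Irf7, Gbp3 and Cxcl10 (adjusted p = 2.85e-05). Beside them, monocyte marker sums in this fraction were 52.3 to 196 CPM with Cre (median 78.9) and 74.6 to 1083 CPM in Cre-neg (median 181), which overlapped. The 1083 CPM was Cre-neg number 2, and the next highest was number 3 at 281 CPM. The part of the monocyte markers in the difference was not tested. Of the pathway genes outside the set, Mb21d1 (0.66), Stat3 (0.34), Myd88 (0.34) and Ciita (0.82) were called higher in this contrast (edgeR). Cd274 (-0.84) and Ifitm6 (-1.07) were called lower. Without the 2 libraries high in monocyte markers, the calls of Stat3, Myd88 and Ciita were lost (adjusted p = 0.149, 0.0717 and 0.0543, edgeR).

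The other 3 contrasts by Cre status had no call without the block. In TFEB-wt CCR2pos cells 27 of 48 differences were above 0 (50.4% of all genes). There (0.00782% of all genes higher, 0% lower) Irf1 had the smallest p (0.37 ± 0.12, adjusted p = 0.585, edgeR), and 1 member in each direction had an unadjusted p under 0.05 (2.82% of all genes each way). With the block Irf1 (adjusted p = 0.031) and Cxcl10 (0.00652) were called higher (0.649% of all genes). In TFEB-TG CCR2neg cells 37 of 48 differences were above 0 (51.3% of all genes). In this contrast (0.086% higher, 0.0703% lower) Ly6e was lower with the block (-0.47, adjusted p = 0.00409, 1.13% of all genes lower). Without it the value was -0.47 ± 0.13 (adjusted p = 0.194), and its mac-TFEB libraries all lay below the Cre-neg ones, which read 1701, 2034, 1984 and 2181 CPM. Ifitm3 (-0.37 ± 0.13), Epsti1 (0.23 ± 0.11) and Ifih1 (0.28 ± 0.13) came next, so that 2 members in each direction had an unadjusted p under 0.05 (4.16% of all genes higher, 3.5% lower). In TFEB-TG CCR2pos cells 36 of 48 differences were below 0 (50.9% of all genes), and 12 genes were lower in every pair (8.07%). There (0.0156% of all genes higher, 0% lower) Ly6e (-0.25 ± 0.13), Oas3 (-0.40 ± 0.26), Irf7 (-0.26 ± 0.17) and Isg15 (-0.23 ± 0.17) had the smallest p, none of them under 0.05 before adjustment (1.06% of all genes higher and 1.02% lower). DESeq2 and limma-voom called no member in these 3 contrasts. Monocyte marker sums in TFEB-TG were 70.6 to 251 CPM in mac-TFEB against 154 to 3538 CPM in Cre-neg libraries (CCR2neg), and 432 to 904 against 966 to 1410 CPM (CCR2pos), without overlap in the latter. In TFEB-wt CCR2pos cells they were 430 to 1066 CPM with Cre and 674 to 1498 CPM in Cre-neg. Their part was not tested.

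**Figure D4:**
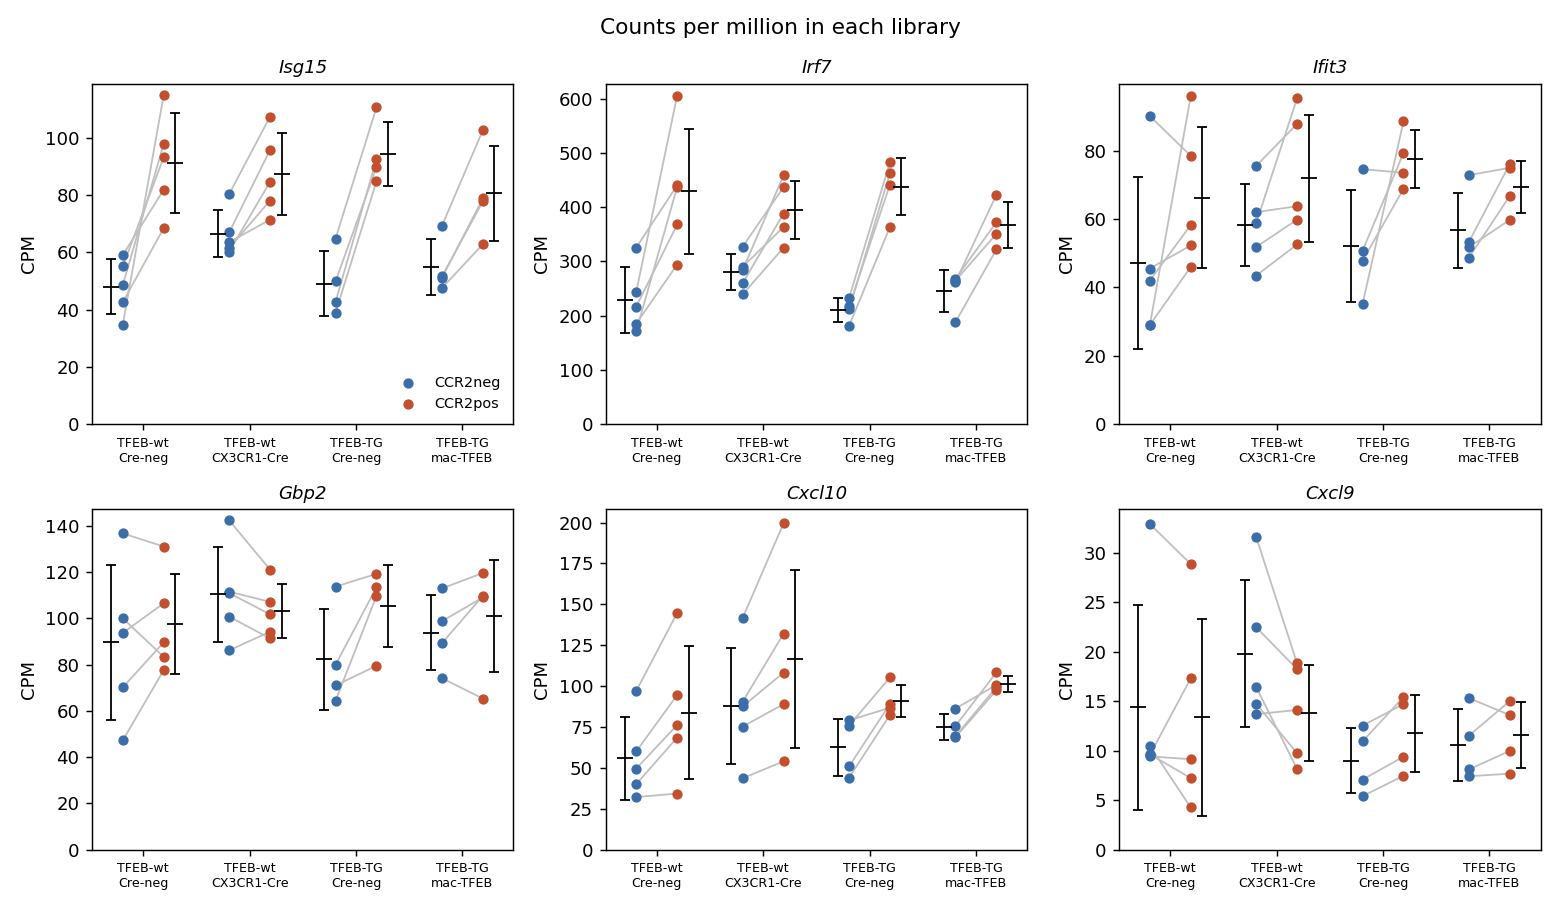
CPM of 6 genes in each library, by fraction (blue CCR2neg, red CCR2pos) within genotype and Cre status; grey lines join libraries with the same sample number, and black bars are mean ± SD (n = 4 or 5). The lines of Isg15, Irf7 and Cxcl10 rise in 18 of 18 pairs, those of Cxcl9 in 9.

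Part of the remaining spread of these genes went with the sample number. After group means were removed, the number accounted for a median of 55.3% of the variance of the 48 genes on the log2 scale, against 44.3% over all genes. Unrelated numbers would also take up a share, because 9 number means were taken over 36 libraries, and this was not subtracted. The share was highest for Cxcl10 (93.5%), Stat2 (84.0%), Cxcl9 (80.1%) and Samd9l (78.6%), and lowest for Herc6 (26.4%). Since libraries of a number share a genotype and may share a mouse, the mouse and its handling cannot be told apart here.

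Cxcl10 kept the same order of numbers in each of the 4 TFEB-wt groups. It read 60.1, 40.1, 32.2, 97.1 and 49.6 CPM (CCR2neg Cre-neg) and 94.7, 68.6, 34.4, 145 and 76.3 CPM (CCR2pos Cre-neg). With CX3CR1-Cre it read 90.5, 75.3, 43.7, 142 and 87.6 CPM (CCR2neg) and 132, 89.0, 54.1, 200 and 108 CPM (CCR2pos). Number 4 was highest and number 3 lowest in all 4 groups, on average 0.87 above and 0.91 below the group means on the log2 scale. TFEB-TG numbers lay closer together: 44.2, 51.0, 75.9 and 79.1 CPM (CCR2neg Cre-neg), 82.4, 89.2, 105 and 86.8 CPM (CCR2pos Cre-neg), 69.4, 68.8, 75.7 and 86.3 CPM (CCR2neg mac-TFEB) and 99.4, 97.5, 108 and 101 CPM (CCR2pos mac-TFEB).

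Cxcl9 shared the high number but not the fraction difference. TFEB-wt Cre-neg libraries read 9.44, 9.65, 10.5, 32.9 and 9.57 CPM (CCR2neg) and 9.15, 7.25, 4.28, 28.9 and 17.3 CPM (CCR2pos), and CX3CR1-Cre libraries 13.7, 16.5, 14.8, 31.6 and 22.5 CPM (CCR2neg) and 14.1, 8.16, 9.76, 18.8 and 18.3 CPM (CCR2pos). Number 4 was again highest in each of these 4 groups. In TFEB-TG the values were 10.96, 5.43, 12.5 and 7.09 CPM (CCR2neg Cre-neg), 15.4, 7.48, 14.7 and 9.41 CPM (CCR2pos Cre-neg), 15.3, 7.43, 11.5 and 8.12 CPM (CCR2neg mac-TFEB) and 13.6, 7.70, 15.04 and 10.0 CPM (CCR2pos mac-TFEB), with numbers 1 and 3 above 2 and 4 in each group. Gbp2 (0.44) and Samd9l (0.71) also lay above their group means in TFEB-wt number 4. Ifnb1 reached 4.17 CPM in the highest CX3CR1-Cre CCR2neg library, against a median of 0.529 CPM in that group.

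Stat2 followed other numbers. In TFEB-wt it read 77.0, 49.3, 68.6, 45.5 and 45.0 CPM (CCR2neg Cre-neg), 72.0, 65.3, 75.2, 56.1 and 57.1 CPM (CCR2pos Cre-neg), 65.1, 59.6, 75.2, 73.8 and 51.2 CPM (CCR2neg CX3CR1-Cre) and 62.3, 75.5, 87.2, 52.2 and 56.7 CPM (CCR2pos CX3CR1-Cre). In TFEB-TG it read 53.8, 60.4, 29.2 and 42.3 CPM (CCR2neg Cre-neg), 71.5, 85.0, 46.5 and 49.2 CPM (CCR2pos Cre-neg), 64.8, 64.8, 36.1 and 40.9 CPM (CCR2neg mac-TFEB) and 67.4, 74.6, 43.0 and 46.8 CPM (CCR2pos mac-TFEB). TFEB-TG numbers 3 and 4 lay below 1 and 2 in all 4 groups. Xist, which female cells express, was found in 4 of 4 libraries of numbers 3 and 4 and in 0 of 4 of numbers 1 and 2, so that sex and number cannot be told apart here. Their mean deviations were -0.46 and -0.23, against 0.28 and 0.41. Ifit3 was highest in TFEB-wt number 1 (0.52 above its group means) and lowest in number 5 (-0.45). Number 1 was the TFEB-wt number without Xist, which the other 4 had in all their libraries. The sample numbers did not fall in 1 common order across these genes.

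**Figure D5:**
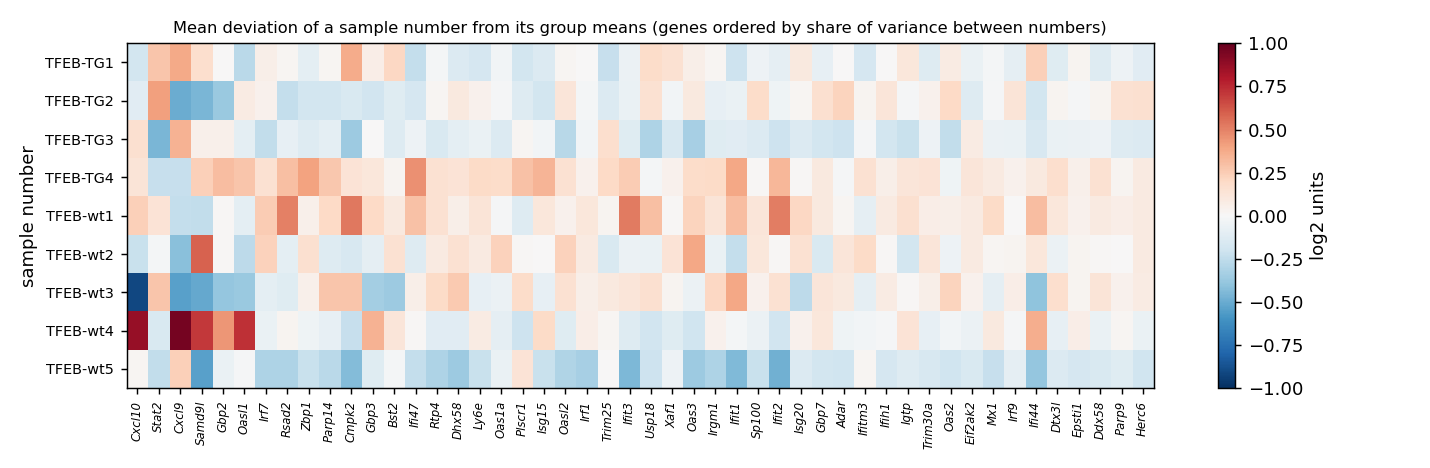
Mean deviation of each sample number from its group means, in log2 units (red above, blue below; rows are the 9 sample numbers, columns the 48 genes in falling order of the share of variance between numbers). TFEB-wt number 4 is red for Cxcl10 (0.87) and Cxcl9 (0.96), and number 3 is blue for Cxcl10 (-0.91).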

How the data were processed

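Per the labels' protocols, the SMARTer Ultra Low kit gave unstranded cDNA, read from 1 end over 50 bases. Named in the submitters' processing notes are the build GRCm38 and the tools HTSeq, TopHat2 2.0.10, Bowtie2, edgeR and DESeq. The authors deposited 1 table of raw read counts per gene, whose filter on low genes, if any, is not stated in the labels. CPM and log2 values were computed from these deposited counts.

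Groups were compared in edgeR 4.0.16 under R 4.3.3 by quasi-likelihood F-tests on TMM-scaled counts, with 8 group means fitted over 36 libraries and Benjamini-Hochberg adjustment over 12795 genes (threshold 0.05). With a minimum count of 10, edgeR's filter kept each gene. Standard errors equal the log2 difference over the root of F. Library totals ran from 13797484 to 32645783 counts. Over all genes, libraries of a group differed by more than counting error (chi-square per degree of freedom 20 to 119). How counting error and this spread compare for each member was not tested. Tested on simulated counts for CCR2pos against CCR2neg in TFEB-wt Cre-neg (12794 genes, 200 of them changed), the method called 39% of 1.5-fold and 55% of 2-fold changes, with 5 false calls. Genes not called may therefore differ.

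The sample number within a genotype was used as a block in contrasts within that genotype. Same-numbered libraries correlated in their deviations from group means, at 0.188 or more in each pair of groups compared directly. The lowest of all pairs was 0.0473, between TFEB-wt groups differing by Cre status as well as by fraction. No 2 libraries of a group agreed within sampling noise.

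Alternatives were DESeq2 1.42.0 (size factors and Wald test), limma-voom with quality weights (limma 3.58.1), 1 CPM in 9 libraries, no filter, an Xist term, the block, leaving out each library and, added after seeing the data, leaving out 2 CCR2neg libraries with over 1000 CPM of monocyte markers. The average over the 4 backgrounds and its split by Cre status were added after seeing the data too. Named are members called (up to 8 per direction by p, or without a call the 4 of smallest p), 7 genes described throughout (Isg15, Ifit3, Irf7, Cxcl10, Cxcl9, Stat2 and Gbp2), Tfeb and Ccr2, and up to 4 genes called per pathway list. Other values given were chosen after they were seen. The members and lists were chosen with earlier results of these data known. Exon lengths and overlaps come from GENCODE vM21.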

Additional observations from a re-analysis of the deposited data

Results flagged for a closer look

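In 64 groups of values (7 genes and the mean of the set, each in 8 groups of 4 or 5 libraries), 4 held a library far from the others by Dixon's criterion, where chance gives about 3.2 (1 in 20). Ifit3 was 90.2 CPM in TFEB-wt CCR2neg Cre-neg number 1, with the next highest at 45.5 CPM. Irf7 was 188 CPM in TFEB-TG CCR2neg mac-TFEB number 3, with the next lowest at 262 CPM. Cxcl9 was 32.9 CPM in TFEB-wt CCR2neg Cre-neg number 4, with the next highest at 10.5 CPM. The mean log2(CPM + 1) of the set was 6.52 in TFEB-TG CCR2pos Cre-neg number 3, with the next lowest at 6.62.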

How the results depend on the processing

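Counts of members called kept within 1.5 times under DESeq2 size factors, no filter and 1 CPM in 9 libraries. The block on sample number raised the higher counts between fractions to 26 (TFEB-wt Cre-neg, with 1 lower), 23 (TFEB-TG Cre-neg), 9 (CX3CR1-Cre) and 9 (mac-TFEB). By Cre status the block gave 9 higher in TFEB-wt CCR2neg, 2 higher in TFEB-wt CCR2pos and 1 lower in TFEB-TG CCR2neg, and it moved no other count by that much. The 2 members higher between fractions in mac-TFEB became 4 with the Xist term, 5 with DESeq2's Wald test and 5 with limma-voom. Limma-voom also gave 5 lower for TFEB in CCR2neg, 0 lower for TFEB-TG against TFEB-wt Cre-neg in CCR2neg, 5 higher between fractions in TFEB-TG Cre-neg and 0 higher by Cre status in TFEB-wt CCR2neg. Without the 2 CCR2neg libraries high in monocyte markers, 0 were higher by Cre status in TFEB-wt CCR2neg and 0 lower over the 4 backgrounds. Leaving out 1 library gave 28 to 31 higher and 0 to 1 lower over the 4 backgrounds, and 8 to 19 higher and 0 to 1 lower (TFEB-wt Cre-neg), 4 to 11 (TFEB-TG Cre-neg), 2 to 3 (CX3CR1-Cre) and 1 to 2 higher (mac-TFEB) by background. It gave 0 to 1 for the single calls of TFEB and of TFEB-TG against TFEB-wt Cre-neg in CCR2neg (lower) and of Cre status in TFEB-wt CCR2neg (higher). The 1 lower in TFEB-wt Cre-neg came without CCR2neg number 5. Shares of all genes called are given for the main fit and the block only. The other counts thus tell only how the calls of members moved. No called difference changed sign under these settings. The causes were not tested. Between genotypes no paired analysis was possible because the numbers there mark different samples.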
